A study of Homo sapiens with 6 samples.

Results

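D-type cyclins, their kinase partners CDK4 and CDK6, the inhibitors of these kinases and the retinoblastoma protein form the switch that commits a mammalian cell to divide. A D cyclin binds CDK4 or CDK6, and the active complex phosphorylates the retinoblastoma protein, which then releases the E2F transcription factors that switch on the genes of DNA synthesis. The INK4 proteins, encoded by Cdkn2a, Cdkn2b and Cdkn2c, bind CDK4 and CDK6 and keep them from cyclins, whereas p27, encoded by Cdkn1b, blocks CDK2 complexes and also helps D cyclins assemble with their kinases. In pigment cells cyclin D1 lies downstream of RAS and ERK signalling, and CDKN2A is a gene of inherited melanoma risk in humans.

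The genes described are Ccnd1, Ccnd2, Ccnd3, Cdk4, Cdk6, Cdkn2a, Cdkn2b, Cdkn2c, Cdkn1b and Rb1. They are 10 of the 38986 gene symbols in the count files and were taken by symbol. They were chosen by the fold changes of the same comparison, in which Ccnd1 had one of the strongest rises while other cell cycle genes fell, so their group values are given as a description, without p-values. Of the 6 RNA-seq libraries in the series, 3 are labelled as mCherry-positive 293T cells with the genotype STAT6 overexpression and 3 as mCherry-positive 293T cells with Mock and the genotype WT. 293T is a human embryonic kidney line, and STAT6 is the transcription factor of interleukin 4 and interleukin 13 signalling. The stated aim was to see how STAT6 bears on mitochondrial gene expression.

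The files go against the labels in species, cell type and the targeted gene. Of their symbols 30 matched a human RefSeq symbol in the same case and 16635 matched one only in capitals, so the symbols are in mouse form. Stat6 stood at 33.6 ± 1.53 CPM (counts scaled to a common library total) in STAT6-labelled libraries and at 94.5 ± 1.49 CPM in Mock-labelled libraries (SD, n = 3 each), a log2 fold change of -1.49 (SE 0.04, edgeR adjusted p = 7.47e-26), which is lower where overexpression is labelled. A sum of 7 pigment cell markers reached 16705 to 16841 CPM in STAT6-labelled libraries and 14404 to 14750 CPM in Mock-labelled libraries. Tyrp1 and Dct carry most of it, while the tyrosinase gene Tyr was at 29.1 ± 0.758 CPM in STAT6-labelled libraries and 303 ± 5.29 CPM in Mock-labelled libraries (SD, n = 3 each). Of 6 kidney markers, Pax8 and Umod were at 0 counts in all libraries, and only Lhx1 passed 1 CPM, in STAT6-labelled libraries alone. The 5 leukocyte markers summed to at most 0.206 CPM in STAT6-labelled libraries and 0.131 CPM in Mock-labelled libraries. The 5 endothelial markers summed to at most 1.03 CPM in STAT6-labelled libraries and 0.262 CPM in Mock-labelled libraries. The 5 fibroblast markers summed to 76.5 to 82.8 CPM in STAT6-labelled libraries and 5.60 to 6.55 CPM in Mock-labelled libraries, and Col1a1 made up most of it, with a mean of 78.7 CPM in STAT6-labelled libraries and 4.85 CPM in Mock-labelled libraries, while Dcn and Lum had at most 1 count in any library. Directions below follow the labels alone, and the part of these differences in the results was not tested.

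Total counts were 19894773 to 23648304 in STAT6-labelled libraries and 22368757 to 29802693 in Mock-labelled libraries. The labels number the libraries without saying that they are separate cultures, so the spread behind each p-value is that between these libraries only and could be technical. In bulk RNA, fewer cells of a kind and less of an RNA in each cell cannot be told apart.

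All 3 D cyclin genes were higher in STAT6-labelled libraries, and Cdk6 and Rb1 were higher with them, while Cdk4 was lower. The 10 genes ranged from a 6.03-fold rise of Ccnd1 to no detected read of Cdkn2a and Cdkn2b. In the edgeR fit over 12938 genes, 8 of the 10 could be tested, and of these 6 were called higher and 2 lower at an adjusted p under 0.05. Of all tested genes 72.6% were called, 35.8% higher and 36.8% lower. The groups did not overlap for any of the 8, as for 74.6% of all tested genes. The median log2 fold change of the 8 was 1.03, beside -0.0033 over all tested genes. Because this comparison chose the genes, nothing is read from their count or their median. The plot of levels by library gives each value.

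**Figure D1:**
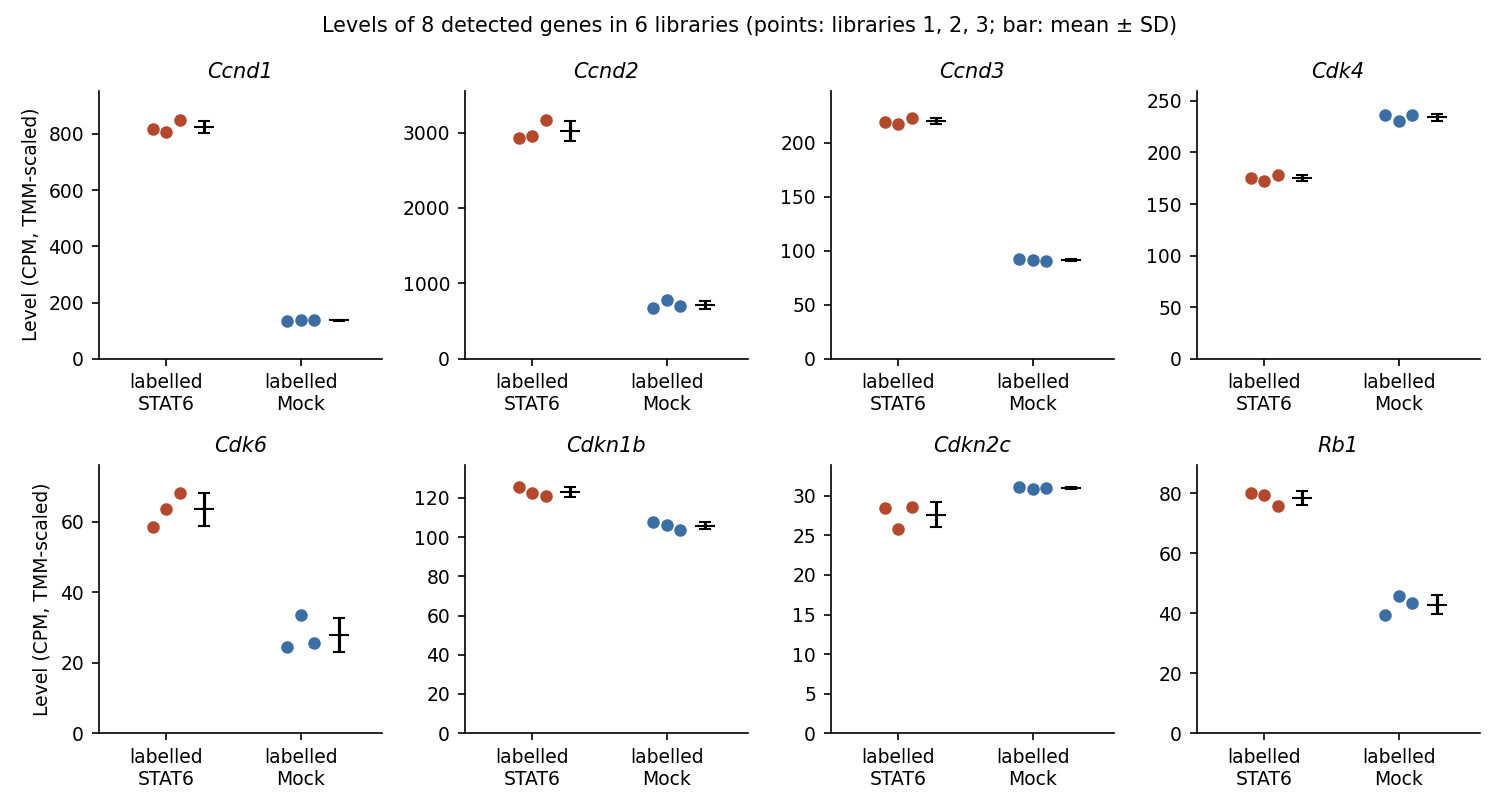
Levels in CPM, scaled with TMM factors, of the 8 detected genes in the 3 libraries labelled STAT6 (left, red) and the 3 labelled Mock (right, blue); bars give mean ± SD. The groups are apart for every gene shown, by the widest factor for Ccnd1 (means of 824 CPM in STAT6-labelled and 137 CPM in Mock-labelled libraries) and narrowly for Cdkn2c (27.6 CPM in STAT6-labelled and 31.0 CPM in Mock-labelled libraries).

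Ccnd1 encodes cyclin D1, the D cyclin most often raised in tumours. It stood at 817, 807 and 848 CPM in STAT6-labelled libraries, against 135, 138 and 137 CPM in Mock-labelled libraries. No library of one group came near the other, and the spread inside each group was small beside the gap. The log2 fold change was 2.59 (SE 0.03), and 357 of the 12938 tested genes, or 2.76%, had a larger fitted rise.

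Ccnd2 encodes cyclin D2, which shares its kinases with cyclin D1. Its level was 2931, 2957 and 3168 CPM in STAT6-labelled libraries, against 671, 779 and 699.7 CPM in Mock-labelled libraries. The groups did not overlap, and Mock replicate 2 was the highest of its group. The log2 fold change was 2.08 (SE 0.07), or 4.21-fold. Ccnd2 alone took 0.287% to 0.306% of all counts in STAT6-labelled libraries and 0.0692% to 0.0794% in Mock-labelled libraries.

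Ccnd3, which encodes cyclin D3, showed the smallest rise of the D cyclins. It was at 219.8, 218 and 223 CPM in STAT6-labelled libraries, against 92.6, 91.7 and 90.9 CPM in Mock-labelled libraries. Both groups were tight and far apart, with a log2 fold change of 1.26 (SE 0.03), or 2.40-fold.

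The kinases moved in opposite directions. Cdk4, a catalytic partner of D cyclins, was at 175, 172 and 178 CPM in STAT6-labelled libraries, against 236, 230.2 and 236 CPM in Mock-labelled libraries. It was lower in each STAT6-labelled library, with a log2 fold change of -0.42 (SE 0.03). Cdk4 overlaps Tspan31 in part in the human RefSeq table of GRCh38.p14. The strand setting of the counting is not given in the sources used here, so reads from the shared stretch could have been counted for either gene. Tspan31, which encodes a tetraspanin and was looked up after the values were seen, was at 95.2 ± 0.176 CPM in STAT6-labelled libraries and 80.9 ± 1.29 CPM in Mock-labelled libraries (SD, n = 3 each), a log2 fold change of 0.23 (edgeR adjusted p = 1.09e-06), which is opposite to Cdk4.

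Cdk6, the related kinase, was at 58.6, 63.7 and 68.2 CPM in STAT6-labelled libraries, against 24.5, 33.4 and 25.6 CPM in Mock-labelled libraries. The groups did not overlap, but Mock replicate 2 stood above its partners. The log2 fold change was 1.19 (SE 0.14), or 2.29-fold, and 1.33 without Mock replicate 2. As a share of Cdk4 plus Cdk6 reads, Cdk6 took 25.1%, 26.97% and 27.7% in STAT6-labelled libraries and 9.40%, 12.7% and 9.78% in Mock-labelled libraries. These shares are not corrected for transcript length, so they compare the groups and not the kinases.

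**Figure D2:**
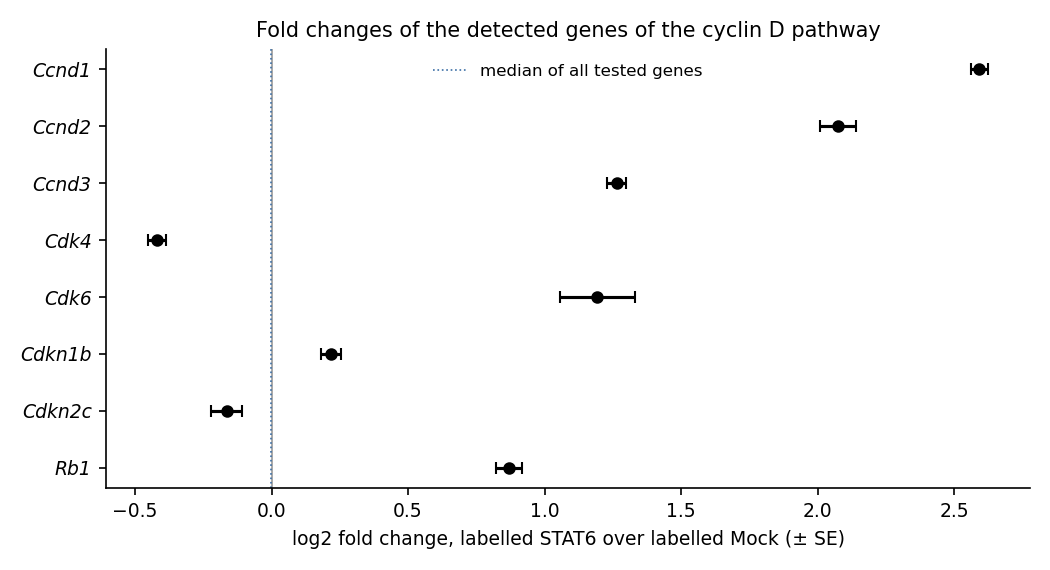
Fitted log2 fold changes, libraries labelled STAT6 over libraries labelled Mock, with bars of the SE, for the 8 detected genes; the dotted line is the median of all tested genes. The D cyclins lie at 2.59, 2.08 and 1.26, Cdk6 at 1.19 and Rb1 at 0.87, while Cdk4 lies at -0.42 and Cdkn2c at -0.16.

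The inhibitor genes among those chosen divided into undetected and nearly level genes. This does not hold for all inhibitor genes. Cdkn1a, outside those chosen, had a mean of 604 CPM in STAT6-labelled libraries and 138 CPM in Mock-labelled libraries. Cdkn1c, also outside them, was not tested. It had 21, 12 and 6 counts in STAT6-labelled libraries and 0, 1 and 2 counts in Mock-labelled libraries. Cdkn2a, which encodes the INK4 protein p16 and, from another reading frame, the ARF protein that stabilises p53, had 0 counts in all 6 libraries. Cdkn2b, which encodes p15 and lies beside it, also had 0 counts in all 6. A count of 0 allows, at 3 counts, a level of up to 0.127, 0.151 and 0.142 CPM in STAT6-labelled libraries and up to 0.134, 0.132 and 0.101 CPM in Mock-labelled libraries. No fold can be given for either gene.

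In the human RefSeq table of GRCh38.p14, Cdkn2a and Cdkn2b lie between Mtap on one side and Dmrta1 and Elavl2 on the other. Mtap, which encodes an enzyme of methionine salvage, was detected in every library, at 255 ± 6.78 CPM in STAT6-labelled libraries and 328 ± 9.44 CPM in Mock-labelled libraries (SD, n = 3 each), a log2 fold change of -0.36 (edgeR adjusted p = 2.69e-12). Dmrta1 had at most 2 counts and Elavl2 at most 1 count in any library. The gene order is that of the human table, and whether the region is intact in these cells was not tested.

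Cdkn2c, which encodes the INK4 protein p18, was the detected member of that family among the 10 genes. It was at 28.5, 25.9 and 28.6 CPM in STAT6-labelled libraries, against 31.2, 30.9 and 31.0 CPM in Mock-labelled libraries. The groups did not overlap, by a narrow margin, and STAT6 replicate 2 was the lowest library. The log2 fold change was -0.16 (SE 0.06), and without STAT6 replicate 2 it was -0.12 and no longer called.

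Cdkn1b was slightly higher, at 126, 122 and 121 CPM in STAT6-labelled libraries, against 108, 106 and 104 CPM in Mock-labelled libraries. The log2 fold change was 0.22 (SE 0.04), or 1.16-fold, a step smaller than that of any D cyclin.

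Rb1, which encodes the retinoblastoma protein and is the substrate of the pathway, was at 80.2, 79.3 and 75.6 CPM in STAT6-labelled libraries, against 39.5, 45.8 and 43.3 CPM in Mock-labelled libraries. The groups were apart, with a log2 fold change of 0.87 (SE 0.05), or 1.83-fold. Lpar6, a lysophospholipid receptor gene, lies inside Rb1 in the human table and was looked up after the values were seen. It had a log2 fold change of 0.62 (edgeR adjusted p = 3.34e-07). Its level was 12.1 ± 0.556 CPM in STAT6-labelled libraries and 7.92 ± 0.601 CPM in Mock-labelled libraries (SD, n = 3 each). As for Cdk4 and Tspan31, the strand setting of the counting is not given, so reads from the shared stretch could have been counted for either gene.

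The balance of cyclins to kinases and to the inhibitor genes Cdkn1b and Cdkn2c was compared inside each library, where library size cancels. There were 4.67, 4.68 and 4.77 Ccnd1 reads per Cdk4 read in STAT6-labelled libraries, against 0.574, 0.599 and 0.579 in Mock-labelled libraries, so the mean ratio was 8.06 times as large. For all D cyclin reads per read of Cdk4 plus Cdk6, the values were 17.0, 16.9 and 17.2 in STAT6-labelled libraries, against 3.45, 3.82 and 3.54 in Mock-labelled libraries, or 4.72 times as large. Per Cdkn1b read the D cyclins had 33.1 ± 1.80 reads in STAT6-labelled libraries and 8.93 ± 0.579 in Mock-labelled libraries, and per Cdkn2c read they had 147 ± 7.44 reads in STAT6-labelled libraries and 30.5 ± 1.96 in Mock-labelled libraries (SD, n = 3 each). Among the D cyclins, Ccnd1 had 0.279, 0.273 and 0.268 reads per Ccnd2 read in STAT6-labelled libraries, against 0.202, 0.177 and 0.196 in Mock-labelled libraries. Each of these ratios was higher in all 3 libraries labelled STAT6 than in any labelled Mock. The ratios restate the fold changes by which the genes were chosen, so they are a description only. No ratio was taken to Cdkn1a, an inhibitor gene outside those chosen. Its mean was 604 CPM in STAT6-labelled libraries and 138 CPM in Mock-labelled libraries, a 4.38-fold rise. The ratios to Cdkn1b and Cdkn2c therefore do not stand for the balance of D cyclins to all inhibitors. The ratios are not corrected for transcript length, so they compare the groups and not the genes, and whether isoform use differed between groups was not tested.

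**Figure D3:**
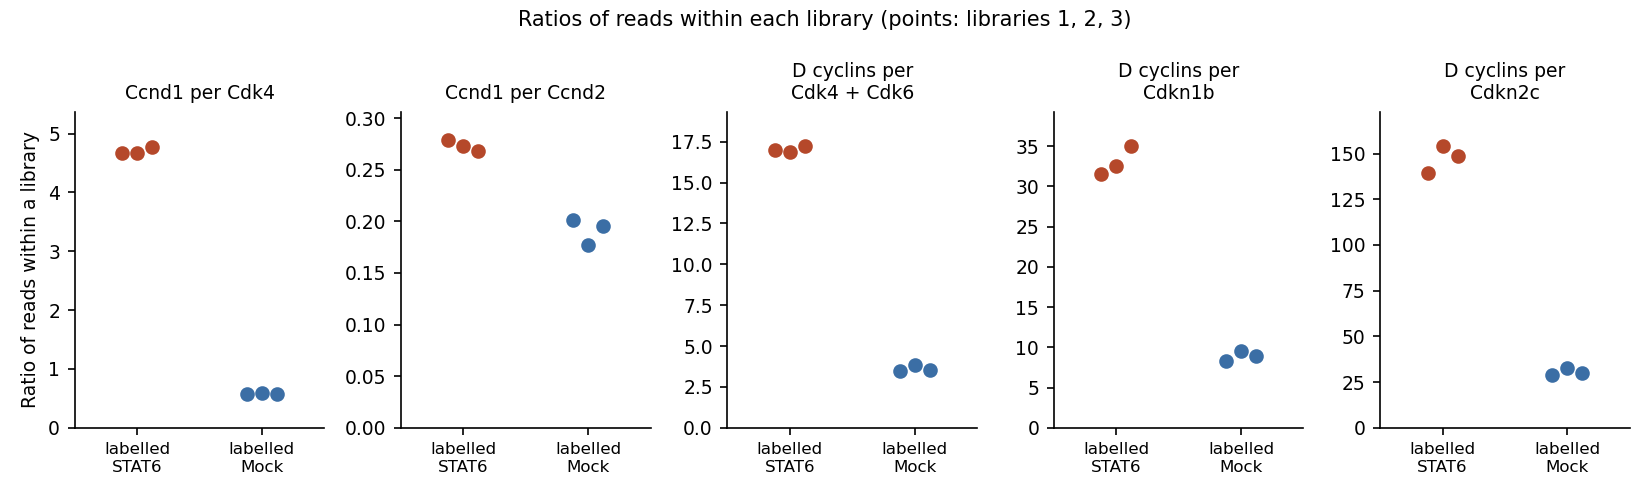
Ratios of reads within each library for 5 pairs, with the 3 libraries labelled STAT6 on the left (red) and the 3 labelled Mock on the right (blue); each axis starts at 0. The mean ratio differs by a factor of 8.06 for Ccnd1 per Cdk4 and by 1.43 for Ccnd1 per Ccnd2.

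The spread between replicates, which played no part in choosing the genes, differed widely among them. The coefficient of variation of Ccnd1 was 2.63% in STAT6-labelled libraries and 0.930% in Mock-labelled libraries, and that of Ccnd3 was 1.35% in STAT6-labelled and 0.940% in Mock-labelled libraries. Cdk6 varied by 7.53% in STAT6-labelled libraries and by 17.5% in Mock-labelled libraries, where counting error alone gives 2.74% in STAT6-labelled and 3.76% in Mock-labelled libraries. Of 7195 genes with a mean of at least 20 CPM, 4.18% varied more than Cdk6 in STAT6-labelled libraries and 0.195% did so in Mock-labelled libraries. Ccnd2 and Rb1 also varied more in Mock-labelled libraries than most genes, by 7.75% and 7.38%, beside a median of 3.42% over the 7195 genes. In all 3 of these genes Mock replicate 2 was the highest library of its group. Over all genes it also stood somewhat apart, since the median chi-square between libraries was 2.27 and 2.48 times that of counting noise for Mock replicate 2 against Mock replicates 1 and 3, and 1.85 times for Mock replicates 1 and 3 against each other.

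The genes whose pattern over the 6 libraries lay closest to that of Ccnd1 included Afap1l1, Hr, Cxcl10 and Prss23. Closeness was the root mean square distance of log2 CPM centred on each gene's own mean, over 11005 genes with a mean of at least 2 CPM, and it was 0.0432 for Afap1l1 and 0.0584 for Prss23. With 2 groups so far apart it mostly ranks genes by the size of their fold change. The chemokine gene Cxcl10 was at 392 ± 6.27 CPM in STAT6-labelled libraries and 64.8 ± 3.38 CPM in Mock-labelled libraries (SD, n = 3 each). Prss23, which encodes a serine protease, was at 99.6 ± 2.09 CPM in STAT6-labelled libraries and 16.3 ± 0.764 CPM in Mock-labelled libraries (SD, n = 3 each). Ccnd2 was the 122nd closest gene and Ccnd3 the 493rd.

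The tested genes listed as neighbours of Ccnd1 had smaller rises than Ccnd1 or none. Ccnd1 was chosen for its strong rise, and 2.76% of tested genes had a larger one, so most genes would stand below it. Whether genes of the region share a cause was not tested. In the human table Tpcn2 lies on one side of Ccnd1, and Fgf4, Fgf3, Ano1, Fadd, Ppfia1, Cttn and Shank2 follow on the other, with FGF19, the human counterpart of mouse Fgf15, before them. Fgf15, Fgf4 and Fgf3, which encode growth factors, had 0 counts in all libraries. Lto1, which lies next to Ccnd1 on that side in the human table, was not among the gene symbols. Tpcn2, a lysosomal channel gene that is the nearest of the listed genes on its side, had a log2 fold change of 0.25 (edgeR adjusted p = 0.0497) with groups that overlapped, and this call was lost in 10 of 15 alternatives (adjusted p 0.0138 to 0.213). Ano1, a chloride channel gene, was at under 1 CPM and not called (-0.086, adjusted p = 0.817), and its sign turned without STAT6 replicate 2 (0.044). The death receptor adaptor Fadd (-0.32, adjusted p = 3.8e-05) and the liprin gene Ppfia1 (-0.12, adjusted p = 0.00182) were lower. Cttn, which encodes the actin regulator cortactin (0.63, adjusted p = 2.79e-19), and the scaffold gene Shank2 (1.12, adjusted p = 2.91e-15) were higher, but by less than Ccnd1.

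**Figure D4:**
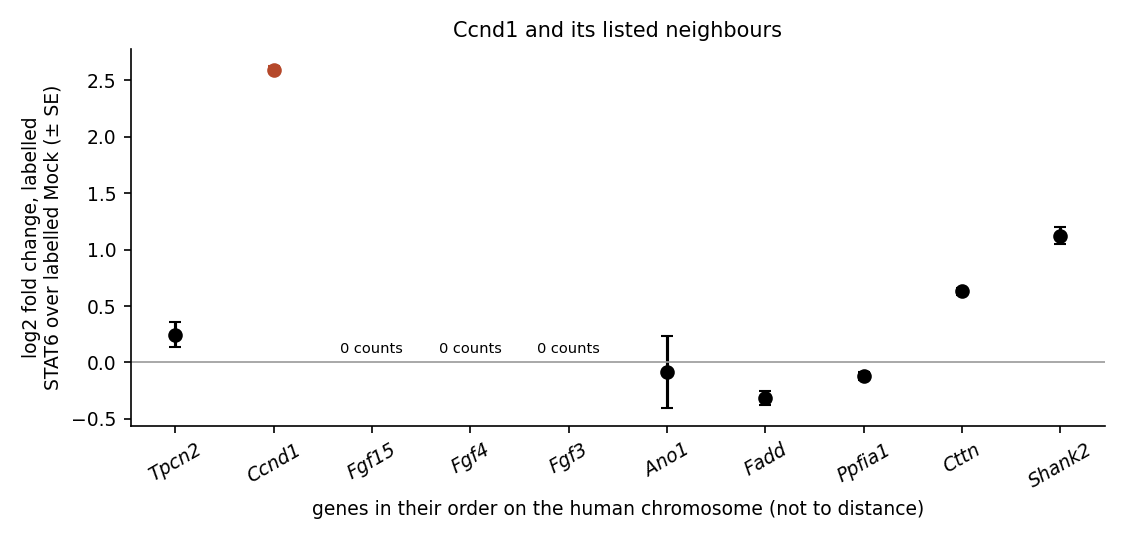
Fitted log2 fold changes, libraries labelled STAT6 over libraries labelled Mock, with bars of the SE, of Ccnd1 (red) and its listed neighbours (black) in human gene order, not to distance. Ccnd1 stands at 2.59 between Tpcn2 at 0.25 and the undetected Fgf genes, and Shank2 at 1.12 is the highest of the neighbours.

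Other genes of the G1 phase went both ways. Of 12 listed, 11 were tested, of which 5 were higher, 5 lower and 1 not called, with a median log2 fold change of 0.14. The share called, 90.9%, stands beside 72.6% of all tested genes, whose calls were also close to even in direction. Cdkn1a, which encodes the inhibitor p21, was at 604 ± 1.11 CPM in STAT6-labelled libraries and 138 ± 3.79 CPM in Mock-labelled libraries (SD, n = 3 each), and its log2 fold change of 2.13 (SE 0.03, edgeR adjusted p = 3.5e-35) was close in size to that of Ccnd2. Rbl1, which encodes the pocket protein p107, fell by 0.59 on the log2 scale (SE 0.04), while Rb1 was higher. Cdk2, the partner of cyclin E, fell by 0.31 (SE 0.03), and Ccnh, a subunit of the kinase that activates CDKs, fell by 0.53 (SE 0.05). The fall of cell cycle genes was part of how the genes here were chosen, so no p-values are given for these falls.

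The following genes were named after their values were seen. The pocket protein gene Rbl2 was higher by 0.28 on the log2 scale (edgeR adjusted p = 4.4e-08), and the cyclin E gene Ccne2 was higher by 0.37 (adjusted p = 7.7e-10). Ccne1 was higher by 0.14 (adjusted p = 0.00456) with groups that overlapped, and this call was lost with library totals alone and without STAT6 replicate 1 (adjusted p 0.000646 to 0.18 over 15 alternatives). The remaining INK4 gene, Cdkn2d, was at 16.4 ± 0.627 CPM in STAT6-labelled libraries and 14.9 ± 0.865 CPM in Mock-labelled libraries (SD, n = 3 each) and was not called (0.14, adjusted p = 0.0774).

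E2F and DP genes went in both directions, with log2 fold changes from -0.44 to 0.39. Of 10 E2F and DP genes tested, 2 were higher, 5 lower and 3 not called, with a median log2 fold change of -0.14. The share called was 70%, close to the 72.6% of all tested genes. Tfdp1, the DP partner of E2F proteins (-0.44, SE 0.03), the activator E2f3 (-0.43, SE 0.05), the repressor E2f4 (-0.39, SE 0.05) and the atypical E2f8 (-0.34, SE 0.04) were lower. No p-values are given for them, since the fall of cell cycle genes was part of the choice. The 2 genes called higher were E2f7 (0.39, edgeR adjusted p = 2.1e-08) and Tfdp2 (0.34, adjusted p = 3.32e-08), named after their values were seen.

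Target genes of E2F at the start of S phase were nearly all lower. Of 20 tested, 0 were higher, 18 lower and 2 not called, with a median log2 fold change of -0.47, beside 36.8% of all tested genes called lower. The fall of cell cycle genes was part of how the genes here were chosen, so no p-values are given and nothing further is read from this count. Tk1, which encodes thymidine kinase, was at 41.6 ± 1.71 CPM in STAT6-labelled libraries and 95.3 ± 6.52 CPM in Mock-labelled libraries (SD, n = 3 each), a log2 fold change of -1.196 (SE 0.05). Ccna2, the cyclin A gene, was at -0.72 (SE 0.03), and the replicative helicase genes Mcm7 and Mcm2 were at -0.66 and -0.59 (SE 0.03 each). The 2 genes not called were Rrm2 (-0.025) and Orc1 (-0.11), named after their values were seen, and both were called lower with library totals alone.

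**Figure D5:**
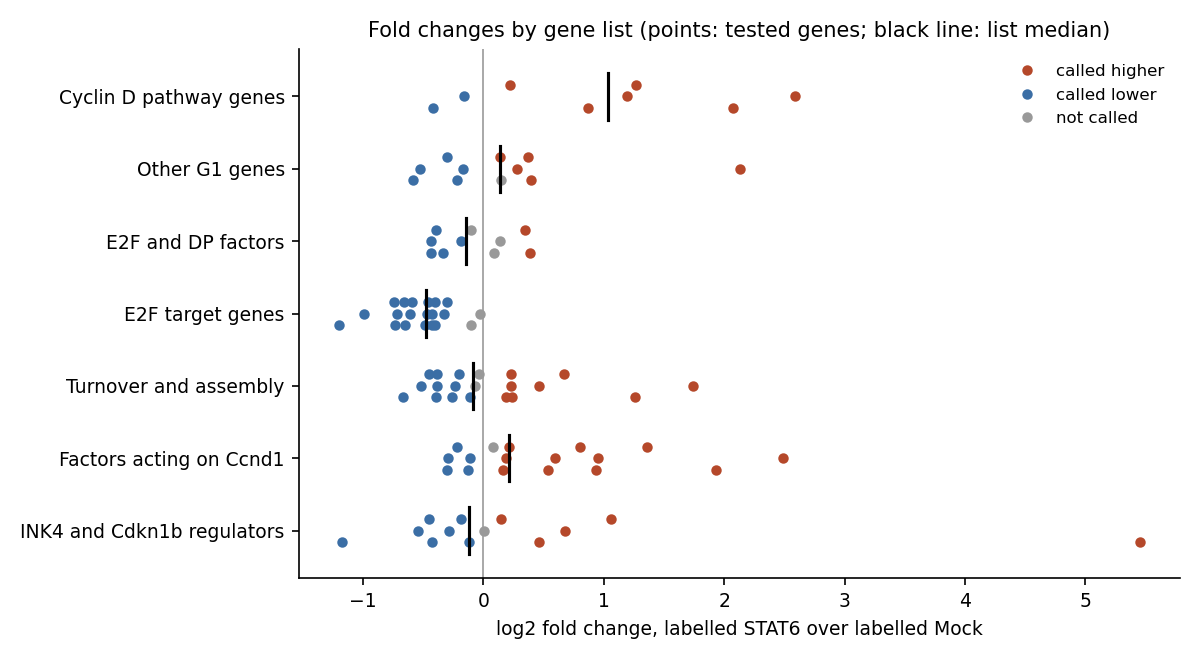
Fitted log2 fold changes, libraries labelled STAT6 over libraries labelled Mock, of the tested genes in each list, coloured by call (red higher, blue lower, grey not called), with the list median as a black line. The E2F target genes all lie below 0, with a median of -0.47 and Rrm2 nearest to 0 at -0.025, while the other lists shown hold genes on both sides of 0.

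Genes that assemble or degrade these proteins also went both ways. Of 20 tested, 8 were higher, 10 lower and 2 not called, with a median log2 fold change of -0.091, beside 35.8% higher and 36.8% lower among all tested genes. Cryab, a small heat shock protein that acts with the ubiquitin ligase subunit FBXO4 on cyclin D1, was at 773 ± 7.51 CPM in STAT6-labelled libraries and 322 ± 5.46 CPM in Mock-labelled libraries (SD, n = 3 each), a log2 fold change of 1.26 (edgeR adjusted p = 1.57e-29). Usp2, which encodes a deubiquitinase that stabilises cyclin D1, was higher by 1.74 on the log2 scale (adjusted p = 1.29e-22). Of the HSP90 genes, whose proteins are chaperones of CDK4, Hsp90ab1 was at a log2 fold change of -0.52 (adjusted p = 2.06e-19) and Hsp90aa1 at -0.39 (adjusted p = 8.05e-16), while Cdc37, the co-chaperone that brings kinases to HSP90, was higher (0.19, adjusted p = 1.77e-05) and was named after its value was seen. Skp2 (-0.38, SE 0.05) and Cks1b (-0.67, SE 0.04), which together direct p27 to degradation, were lower. Skp1, a core subunit of the same ligase (0.46, adjusted p = 1.16e-14), and Rnf123, a subunit of another p27 ligase (0.24, adjusted p = 0.000157), were higher. These 4 genes were named after their values were seen. Because the fall of cell cycle genes was part of the choice, no p-values are given for Skp2 and Cks1b.

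Transcription factors known to act on Ccnd1 included genes called in both directions. Of 19 listed, 17 were tested, of which 11 were higher, 5 lower and 1 not called, with a median log2 fold change of 0.21, beside 35.8% higher and 36.8% lower among all tested genes. The AP-1 gene Jun was at 70.9 ± 3.97 CPM in STAT6-labelled libraries and 27.6 ± 0.954 CPM in Mock-labelled libraries (SD, n = 3 each), a log2 fold change of 1.36 (edgeR adjusted p = 3.42e-23). Its relative Junb was higher by 1.93 (adjusted p = 3.54e-22), Stat3 by 0.93 (adjusted p = 2.97e-21) and Myc by 0.60 (adjusted p = 1.66e-16). Of the 5 called lower, Ets1 was at -0.30 (adjusted p = 9.88e-10) and Sp1 at -0.29 (adjusted p = 1.12e-08). Ets1 and Sp1 were named after their values were seen. Whether any of the listed factors acted on Ccnd1 in these cells, or in which direction, was not tested.

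Regulators of the inhibitor genes were also divided. Of 13 tested, 5 were higher, 7 lower and 1 not called, with a median log2 fold change of -0.12, beside 35.8% higher and 36.8% lower among all tested genes. The number lower was 4 without Mock replicate 3 and 4 at an adjusted p of 0.01. Suz12, a Polycomb subunit, was at 121 ± 4.07 CPM in STAT6-labelled libraries and 273 ± 8.71 CPM in Mock-labelled libraries (SD, n = 3 each), a log2 fold change of -1.17 (edgeR adjusted p = 6.19e-26), and Bmi1, a Polycomb repressor of Cdkn2a, had a lower level too (-0.54, adjusted p = 1.17e-16). Id1, an inhibitor of basic helix-loop-helix factors, had 307, 253 and 244 counts in STAT6-labelled libraries and 3, 10 and 9 counts in Mock-labelled libraries, a log2 fold change of 5.45 (adjusted p = 1.46e-23). Foxo3, a transcription factor that activates Cdkn1b, was higher by 1.06 (adjusted p = 3.77e-23).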

How the data were processed

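Per the labels' protocols, sequencing used a stranded mRNA library kit. Deposited files hold 1 whole-number count per gene symbol and library, unscaled. Per the submitters' processing notes, FastQC, STAR, Salmon, edgeR and the build GRCh37 were used, without versions. Neither read assignment nor strandedness of counting nor filtering is described (not given in the sources used here). Counts were analysed with edgeR 4.0.16 in R 4.3.3: filterByExpr, TMM scaling, and the 2-sided quasi-likelihood test with robust fitting and group as the only term, adjusted by Benjamini-Hochberg over 12938 genes (threshold 0.05). CPM use TMM-adjusted totals. A fold change is labelled STAT6 over labelled Mock, and its SE is its size over the square root of the F statistic. Up to 4 genes per list, those with the smallest adjusted p, all listed neighbours, Stat6 and the 5 profiles closest to Ccnd1 are named, and 1 gene that this takes is not reported here. The genes and lists were chosen with earlier results of these data known. Floors of 3 counts cover counting error only. Tested on simulated counts for 12764 genes, the fit recovered 60% of genes with a simulated 1.2-fold change and 96% with a 4-fold one. Only 50 genes were changed at each fold, whereas 72.6% of tested genes were called in the data, so recovery in the data can differ. DESeq2 1.42.0 and limma-voom 3.58.1 were alternatives. Same-numbered libraries deviated together by a correlation of 0.06, 0.10 and 0.02, and no label pairs them.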

Additional observations from a re-analysis of the deposited data

How the results depend on the processing

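Over 15 alternatives (3 other scalings, no filter or 1 CPM in 3 libraries, DESeq2, limma-voom, a replicate block, a stricter threshold, and each library left out), 6 of the 10 genes stayed called higher, and the log2 fold change was 2.52 to 2.61 for Ccnd1, 2.00 to 2.13 for Ccnd2, 1.19 to 1.28 for Ccnd3, 1.11 to 1.33 for Cdk6, 0.80 to 0.91 for Rb1, 0.14 to 0.23 for Cdkn1b, -0.49 to -0.41 for Cdk4 and -0.24 to -0.12 for Cdkn2c. Over the same settings, 4050 to 4954 of all tested genes were called higher and 4257 to 5475 lower. The comparison chose the 10 genes, of which 8 were tested, so nothing is read from their count. The number of the 10 genes called lower was 1 in place of 2 at an adjusted p of 0.01. It was 1 to 2 when a library was left out, since Cdkn2c lost its call without STAT6 replicate 2 (-0.12). Regulators of the inhibitor genes called lower numbered 4 at an adjusted p of 0.01 and 4 without Mock replicate 3, in place of 7, and the cause was not tested. Leaving out libraries gave -0.26 to 0.044 for Ano1 and -0.045 to 0.0041 for Rrm2, with neither called. With the replicate block, for which the labels give no basis, 4643 genes were called higher and 4779 lower, against 4638 and 4761 without it, and 6 and 2 of the 10 genes as before. Cdkn2a and Cdkn2b had 0 counts in all 6 libraries, so only upper limits can be given, at 0.101 to 0.151 CPM by library. Ano1, with 11 to 21 counts in a library, has a wide error (SE 0.32).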

Other observations

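Among proteins that bind members of this pathway, looked up after the values were seen, Ccndbp1, which encodes a cyclin D1-binding protein, was at 40.1 ± 1.98 CPM in STAT6-labelled libraries and 25.9 ± 0.978 CPM in Mock-labelled libraries (SD, n = 3 each), a log2 fold change of 0.64 (edgeR adjusted p = 1.45e-12). Cdkn2aip, which encodes a binding partner of ARF, was at 15.1 ± 1.78 CPM in STAT6-labelled libraries and 17.5 ± 1.07 CPM in Mock-labelled libraries (SD, n = 3 each), a log2 fold change of -0.21 (adjusted p = 0.0166), a call that was lost with DESeq2, at the stricter threshold and without STAT6 replicate 3, in libraries with 0 counts of Cdkn2a.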
